A study of Mus musculus with 11 samples.

Results

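Telocytes of the mouse small intestine were examined among the cells of whole mesenchyme, where they were taken as the cells that passed a gate on 7 genes in 2 droplet single-cell libraries, WM1 and WM2. A barcode was kept if at least 500 genes were detected and mitochondrial genes made up less than 10% of its UMIs, a UMI being 1 counted RNA molecule. Members were then chosen by the measured UMIs of these genes: a kept cell had 2 or more Pdgfra UMIs, no Ptprc UMI, and 4 or more UMIs in the sum of Bmp3, Bmp7, Sox6, Wnt5a and Fgf9. The gate took 95 of 6226 kept cells in WM1, a share of 1.53% (exact 95% interval 1.24% to 1.86%), and 102 of 6040 in WM2, a share of 1.69% (1.38% to 2.05%), which is 197 of 12266 in all. These intervals cover counting error only. The 7 gate genes are described once and enter no comparison.

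Telocytes are long, thin mesenchymal cells that lie directly under the intestinal epithelium, and in mouse they are known for high PDGFRA, for the transcription factor FOXL1 and for making BMP and Wnt ligands. BMP ligands favour differentiation along the villus, while the stroma deeper in the mucosa, where PDGFRA is lower, is known for secreted BMP antagonists such as gremlin 1 and for R-spondins, which support stem cells in the crypt. Endothelin receptors, potassium channels and contractile proteins are known from smooth muscle and pericytes, the cells wrapped around small vessels.

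The gated cells were set against the other Pdgfra cells of the same libraries, which met the Pdgfra and Ptprc limits but had a gate sum under 4 (527 cells in WM1 and 451 in WM2), and against all other kept cells. The whole-mesenchyme cells came from small intestine stripped of muscle and epithelium, and the labels give them no genotype, strain, age or sex. Bulk RNA had been read from sorted cells of transgenic PDGFRAH2BEGFP mice, in which nuclear GFP reports Pdgfra: 2 Telocyte libraries from GFPHi cells and 2 PDGFRAlo libraries from GFPLo cells. The bulk fit also held 2 libraries of CD31+LYVE1- and 2 of CD31+LYVE1+ endothelial cells from C57BL/6 mice. A single-cell library of GFP-sorted cells of unnamed strain, loaded as a mixture of both GFP levels, was used without a test because it has no replicate. All populations were freshly isolated by collagenase digestion, and nothing in the labels says which libraries came from separate animals.

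Gated cells had about the depth of the other Pdgfra cells and more than the rest. Their median was 7561 UMIs in WM1 and 7786 in WM2, against 7936 and 7858 in other Pdgfra cells and 5226 and 5193 in all other cells. WM1 and WM2 shared 7 barcodes among kept cells and 0 among gated cells. Scrublet predicted 0 gated cells as doublets in WM1 and 2 in WM2. After the sums per library and class were fitted together in edgeR, the coefficient of variation between libraries was 0.058 for the comparison with other Pdgfra cells, so the counts past a threshold measure a very small spread that may be technical. Because the gate itself drew the line between the cells compared, all single-cell differences below are descriptions, given without p-values. The bulk libraries, which the gate did not use, carry the tests.

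Most markers of other cell types were low in gated cells. Of 9 epithelial markers, 7 in WM1 and 6 in WM2 were at 0 in gated cells, and of 6 neuronal markers 6 and 5 were at 0. Summed blood endothelial markers stood at 47.3 and 32.2 CPM (UMIs per 1000000 UMIs of the class), against 36.5 and 44.8 CPM in other Pdgfra cells. Summed macrophage and dendritic markers were higher than in other Pdgfra cells, at 31.5 and 72.4 against 19.5 and 14.4 CPM. In all other cells they were at 660 and 655 CPM. Summed T and innate lymphoid markers stood at 252 and 360 against 270 and 291 CPM, and at 1190 and 1182 CPM in all other cells. In gated cells this sum was mostly Rora, with 170 UMIs in 69 cells of WM1 and 275 UMIs in 86 cells of WM2. Cd3e had 0 and 1 UMIs there. The 7 summed B and plasma cell markers, mostly Igkc, stood at 16126 and 26739 CPM in gated cells, against 10443 and 7532 CPM in other Pdgfra cells and 192534 and 195670 CPM in all other cells. That height came from 1 gated cell in each library, which held 89.1% of these UMIs in WM1 and 94.0% in WM2. The cell had 31247 UMIs in all in WM1 and 38324 in WM2, against gated medians of 7561 and 7786. Without that cell the sum was 1841 and 1690 CPM, lower than in other Pdgfra cells. The B cell marker Ms4a1 was at 0 in the gated cells of WM1. Igkc alone was at 111722 CPM in barcodes with 20 UMIs or fewer, which hold free RNA. A single WM1 cell held 123 of the 127 proliferation-marker UMIs of the WM1 gated cells, and a single WM1 cell held 34 of 36 enteric glia UMIs. The part of these cells and of the 2 immunoglobulin-rich cells in any single-gene difference was not tested except where a value without them is given.

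The gate genes themselves were present in most members. In the gated cells, Sox6 had a UMI in 88 of 95 (WM1) and 96 of 102 (WM2), Bmp7 in 79 and 86, Wnt5a in 74 and 84, Bmp3 in 61 and 58, and Fgf9 in 39 and 51. In other Pdgfra cells Sox6 had a UMI in 8 of 527 and 5 of 451. The sum was 0 in 420 WM1 and 363 WM2 cells and thinned out towards the limit: 12 and 5 cells sat just outside it at 3, and 6 and 7 cells just inside at 4. These values only restate the choice of cells.

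**Figure D1:**
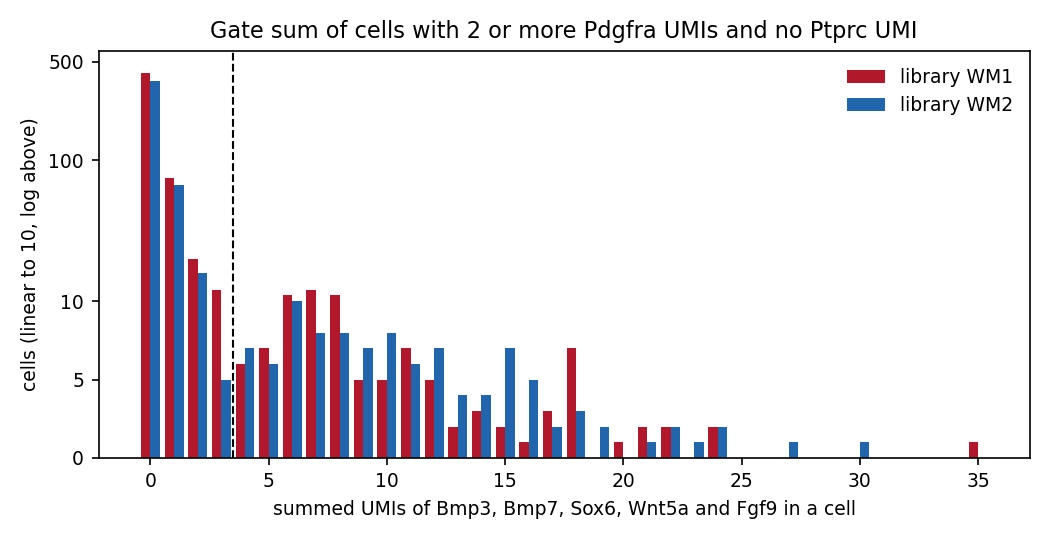
Bars give the number of kept cells with 2 or more Pdgfra UMIs and no Ptprc UMI at each summed UMI count of the 5 summed gate genes, for WM1 (red) and WM2 (blue); the vertical axis is linear to 10 and logarithmic above, and the dashed line is the limit of the gate. Most cells sit at 0 or 1, 12 and 5 cells sit at 3, and the 95 and 102 gated cells spread to the right of the line.

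Over all genes, 616 of 10616 tested (5.8%) were higher in gated than in other Pdgfra cells and 940 (8.85%) were lower, at an adjusted p under 0.05 (edgeR) and a fold of more than 1 on the log2 scale. The gate drew this contrast, so nothing is read from the counts themselves. With library totals alone in place of TMM scaling, which moved every log2 fold by 0.15, the split was 783 higher and 784 lower. Against all other kept cells, 1537 of 14537 genes (10.6%) were higher and 2549 (17.5%) lower. In that comparison TMM scaling takes 0.62 from every log2 fold, and with library totals alone the split was 3590 higher and 1703 lower. Folds below are from the TMM-scaled fit, whereas CPM are of plain totals.

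Outside the gate genes, the cells were marked by endothelin receptors, by both parts of an ATP-sensitive potassium channel and by low levels of microfibril and other matrix genes. Ednrb, an endothelin receptor, stood at 1445 and 1658 CPM in the gated cells of WM1 and WM2, against 37.9 and 25.5 CPM in other Pdgfra cells, a log2 fold of 5.44. A UMI of Ednrb was found in 94.7% and 97.1% of gated cells, against 9.87% and 6.65% of other Pdgfra cells and 2.43% and 2.77% of Ptprc-positive cells. The Ptprc-positive class, with a median of 4207 and 4230.0 UMIs, took any kept cell with a Ptprc UMI. It held 11 cells in WM1 and 15 in WM2 that met the other limits of the gate. Empty barcodes had 25.2 CPM of Ednrb, close to the level in other Pdgfra cells. Its bulk level was 2845 and 3883 CPM in the Telocyte libraries and 94.7 and 25.3 CPM in the PDGFRAlo libraries (log2 fold 5.81, SE 0.73, adjusted p = 0.00104, edgeR quasi-likelihood test, Benjamini-Hochberg). Every gated value and every Telocyte value lay above every value of the cells or libraries it was set against.

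The other receptor of the pair, Ednra, had 377 and 364 CPM in gated cells and 30.9 and 27.4 CPM in other Pdgfra cells. In bulk it had 956 and 1266 CPM in Telocyte and 56.2 and 55.5 CPM in PDGFRAlo libraries (log2 fold 4.31, adjusted p = 0.000321, edgeR). Alcam, a cell adhesion molecule, had the largest single-cell fold of the genes with 200 CPM or more, at 206 and 243 CPM in gated cells against 3.25 and 2.49 CPM in other Pdgfra cells (log2 fold 6.09), and in bulk its log2 fold was 5.34 (adjusted p = 0.00126, edgeR). Both receptors and Alcam were thus high in both gated sums and both Telocyte libraries, with no overlap.

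Tmem158 (687 and 614 CPM in gated cells, 20.9 and 16.9 CPM in other Pdgfra cells), Trp53i11, a p53-inducible gene (309 and 217 against 8.36 and 9.41), Efnb2, the membrane ligand ephrin B2 (233 and 238 against 9.99 and 9.68), and Gadd45a, a stress-response gene (492 and 475 against 31.8 and 26), followed. All 4 were higher in bulk Telocyte libraries, as were 2.77% of the 14893 genes tested there, with log2 folds of 6.36, 4.34, 3.46 and 2.89 and adjusted p = 0.000242, 0.000366, 0.00504 and 0.0039 (edgeR). Cav1 and Tspan13, which are also among the 10 largest rises, lost their bulk call when a library was left out. Cav1, the coat protein of caveolae, had 210.3 and 244 CPM in gated cells against 10.9 and 9.41 CPM, and its bulk adjusted p of 0.0324 reached 0.183 without PDGFRAlo replicate 2. Tspan13, a tetraspanin, had 268 and 235 CPM in gated cells against 13.2 and 7.75 CPM, and its bulk adjusted p of 0.00935 reached 0.0799 without the same library (edgeR).

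The genes that were lowest in gated cells relative to other Pdgfra cells included matrix and protease-inhibitor genes. Serpina3n, a serine protease inhibitor, had 3.94 and 6.9 CPM in gated cells against 257 and 256 CPM in other Pdgfra cells (log2 fold -5.67). Mfap4, a microfibril protein, had 34.2 and 43.7 against 1013 and 952 CPM. Mgp, the matrix Gla protein that inhibits calcification, had 114 and 186 against 3693 and 3587 CPM. Cd55, a complement decay factor, had 3.94 and 13.8 against 194 and 208 CPM. Gsta3, a glutathione transferase, Hsd11b1, which activates glucocorticoids, and the matrix gene Abi3bp had between 3.94 CPM (Gsta3, WM1) and 20.7 CPM (Hsd11b1, WM2) in gated cells. Fbln1 and Grem1 complete the 9 largest falls. Of 10 listed genes of Cd81 and adventitial stroma, a deeper fibroblast population, 9 were lower, 0 higher and 1 did not pass in gated cells. Over all genes tested, 8.85% were lower and 5.8% higher.

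All 9 of these falls were lower in bulk Telocyte than in PDGFRAlo libraries, as were 12.1% of all genes tested there, with log2 folds between -9.52 for Serpina3n (adjusted p = 0.000254, edgeR) and -4.88 for Mgp (adjusted p = 0.00244), and each kept an adjusted p under 0.05 with any 1 of the 4 libraries left out. Fbln1, the matrix protein fibulin 1, differed between the gated sums, at 48.6 and 162 CPM in gated cells, against 2684 and 2499 CPM in other Pdgfra cells. A single cell held 22 of its 37 UMIs in WM1 and another 46 of its 141 UMIs in WM2. With only WM1 its log2 fold was -5.92 and with only WM2 -4.08.

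**Figure D2:**
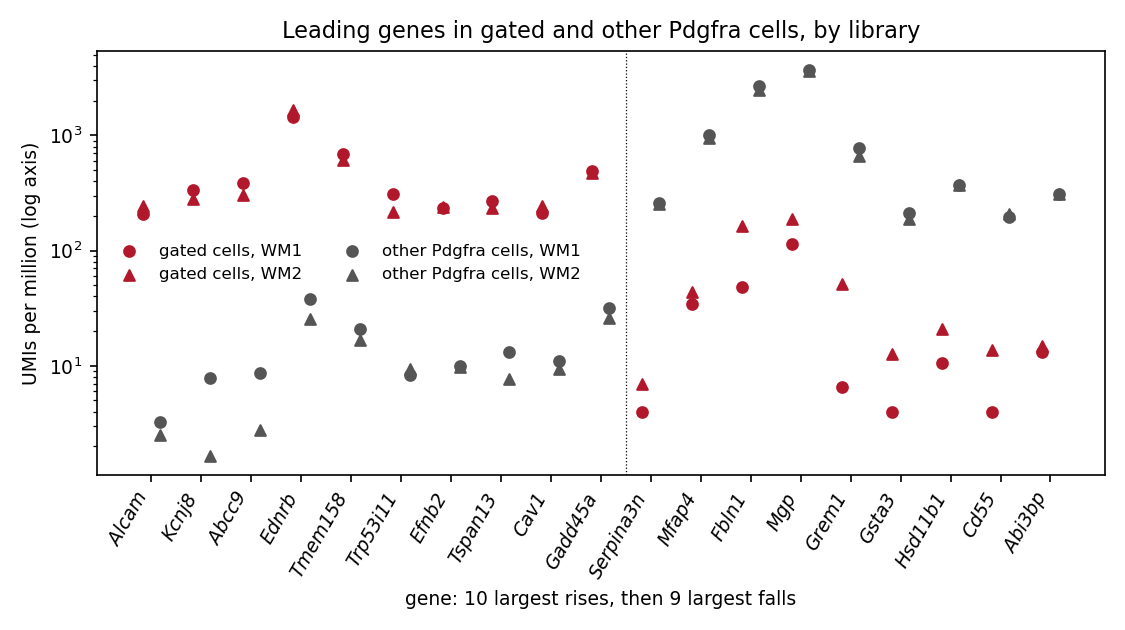
Each point is the level of a gene (UMIs per 1000000, log axis) in the summed gated cells (red, left of each pair) or the summed other Pdgfra cells (grey, right) of WM1 (circles) or WM2 (triangles); the 10 genes left of the dotted line have the largest rises and the 9 to its right the largest falls among genes with 200 CPM or more in the higher class. No gene shows overlap between the red and grey points, and Grem1 shows the widest gap between the 2 red points.

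Ednrb and Fbln1 were followed across the gate sum among Pdgfra cells without Ptprc. Cells with a sum of 0 or 1 had 26.2 CPM of Ednrb in WM1 (495 cells) and 13.9 CPM in WM2 (430 cells). Cells with a gate sum of 2 or 3 had 225 CPM (32 cells) and 274 CPM (21 cells), so the level was already higher just outside the limit. Cells with a sum of 4 or 5 had 1322 and 691 CPM (13 cells each), and cells with 6 or more had 1457 and 1815 CPM. Fbln1 ran the other way, with 2749 and 2529 CPM at 0 or 1, 1633 and 1855 CPM at 2 or 3, 0 and 189 CPM at 4 or 5, and 53.6 and 158 CPM at 6 or more. The median Pdgfra count, which the gate also used, was 3 UMIs in WM1 at a sum of 2 or 3 and 7 UMIs at 4 or 5.

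Kcnj8 and Abcc9 encode the pore (Kir6.1) and the regulatory subunit (SUR2) of an ATP-sensitive potassium channel and are known together from pericytes and vascular smooth muscle. They are neighbours on chromosome 6, both on the minus strand, with 16247 bases between them in GENCODE M21 (GRCm38). Kcnj8 stood at 336 and 283 CPM in gated cells against 7.9 and 1.66 CPM in other Pdgfra cells, and Abcc9 at 388 and 305 against 8.59 and 2.77 CPM. In bulk, Kcnj8 had 814 and 731 CPM in Telocyte and 12 and 3.6 CPM in PDGFRAlo libraries (log2 fold 6.64, adjusted p = 0.000432, edgeR), and Abcc9 had 705 and 719 CPM in Telocyte and 15.1 and 7.48 CPM in PDGFRAlo libraries (log2 fold 5.98, adjusted p = 0.000586). As both neighbours were high in gated cells, their promoters are shown, from 250 bases before to 50 bases after the start of the gene, in the direction of transcription, from RefSeq on GRCm38.p6, chr6:142571565-142571864 for Kcnj8 and chr6:142702225-142702524 for Abcc9. Capitals mark exact matches, on either strand, to ACCACCC, the core of the motif bound by the GLI factors of Hedgehog signalling.
Kcnj8: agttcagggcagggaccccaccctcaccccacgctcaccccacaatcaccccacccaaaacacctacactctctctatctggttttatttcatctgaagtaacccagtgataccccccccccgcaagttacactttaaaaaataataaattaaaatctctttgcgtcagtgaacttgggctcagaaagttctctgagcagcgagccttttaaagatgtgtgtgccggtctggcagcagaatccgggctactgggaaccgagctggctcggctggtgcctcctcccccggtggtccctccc
Abcc9: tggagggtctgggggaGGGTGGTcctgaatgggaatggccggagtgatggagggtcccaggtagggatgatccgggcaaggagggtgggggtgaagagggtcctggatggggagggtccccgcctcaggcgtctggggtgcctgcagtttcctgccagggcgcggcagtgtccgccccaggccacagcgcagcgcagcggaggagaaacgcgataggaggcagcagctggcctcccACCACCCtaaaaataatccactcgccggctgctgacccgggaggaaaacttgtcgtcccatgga
The Abcc9 window held 2 matches and the Kcnj8 window 0, and neither held GTAAACA, a forkhead motif, on either strand. ACCACCC was found in 4.54% of 27025 RefSeq promoters, in 4.66% of the 451 promoters matched by symbol to genes higher in gated cells and in 5.79% of the 674 matched to genes lower. GTAAACA was found in 3.55%, 2.44% and 2.37% of the same 3 sets.

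Kcnj8 and Abcc9 appear on marker lists for pericytes, so the rest of that list was read in the same cells. Notch3 stood at 3.94 and 2.3 CPM and Higd1b at 1.31 and 0 CPM in gated cells, which is near 0. Rgs5, a regulator of G protein signalling, was lower in gated cells, at 271 and 338 CPM against 1019 and 1035 CPM in other Pdgfra cells, and Cspg4, the NG2 proteoglycan, was higher, at 221 and 212 against 56.7 and 68.1 CPM. The list thus split between its members: Kcnj8, Abcc9, Cspg4 and Mcam were higher, Rgs5 was lower, and 3 of the 8 had too few UMIs for the comparison. Of the markers of interstitial cells of Cajal, the pacemaker cells of gut muscle, Etv1 stood at 287 and 258 CPM against 43.4 and 39.3 CPM in other Pdgfra cells. Kit and Ano1, which define those cells, were low but also higher, Kit at 10.5 and 9.2 CPM against 1.86 and 0.83 CPM and Ano1 at 7.89 and 8.05 against 0.697 and 0 CPM.

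Against the whole mesenchyme, the 10 largest rises were those of Abcc9, Ednrb, Tmem158, Col4a5, Kcnj8, Cybrd1, Hspa12a, Smoc2, Ednra and Efnb2. Abcc9 led, at 388 and 305 CPM in gated cells against 3.11 and 3.3 CPM in all other kept cells (log2 fold 6.13), before Ednrb (log2 fold 6.02). Col4a5, a chain of basement membrane collagen IV, had 308 and 324 CPM against 4.73 and 4.74 CPM. Cybrd1, a ferric reductase, had 273 and 209 against 3.5 and 4.14 CPM, Hspa12a, an atypical heat shock protein, 195 and 221 against 4.98 and 4.8 CPM, and Smoc2, a matricellular calcium-binding protein, 691 and 574 against 18.2 and 15.4 CPM. Tspan13, which stood far above other Pdgfra cells, was near the level of all other cells (183 and 188 CPM).

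The most abundant genes among those higher than in all other cells were general stromal genes. Adamdec1, a secreted protease of gut stroma, had 4699 and 5416 CPM in gated cells, 7303 and 7101 CPM in other Pdgfra cells and 1681 and 1494 CPM in all other cells. Igfbp7, a secreted growth-factor binding protein, and Col1a2, a chain of collagen I, were likewise lower in gated than in other Pdgfra cells, Igfbp7 at 2842 and 2777 against 4258 and 4187 CPM and Col1a2 at 1991 and 2198 against 3726 and 3490.1 CPM, by less than the fold set for a call. Id3, a target of BMP signalling, had 2106 and 1966 CPM in gated cells, 1199 and 1419 CPM in other Pdgfra cells and 338 and 324 CPM in all other cells. Cald1, the actin-binding caldesmon, and Nbl1, a secreted BMP antagonist, stood above other Pdgfra cells too, Cald1 at 1928 and 1937 against 417 and 409 CPM and Nbl1 at 1931 and 1861 against 541 and 497 CPM. Col6a1, a chain of collagen VI, and S100a6, a calcium-binding protein, complete the 8 most abundant, at 1922 and 1905 CPM and at 1813 and 1641 CPM in gated cells.

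Across classes set by other markers, Ednrb, Ednra, Kcnj8, Abcc9, Col4a5, Smoc2, Bmp5, Gdnf and Wif1 were highest in gated cells. Smoc2 was at 633 CPM in gated cells and 86.8 CPM in other Pdgfra cells, and Ednrb at 1551 CPM in gated cells and 58.5 CPM in cells with Myh11 or Rgs5 UMIs. Tagln and Acta2 were highest in cells with Myh11 or Rgs5 UMIs, at 3899 and 4385 CPM, and second highest in gated cells, at 1712 and 1288 CPM. The Myh11 or Rgs5 class was mixed, since it also had 8845 CPM of the fibroblast proteoglycan Dcn.

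**Figure D3:**
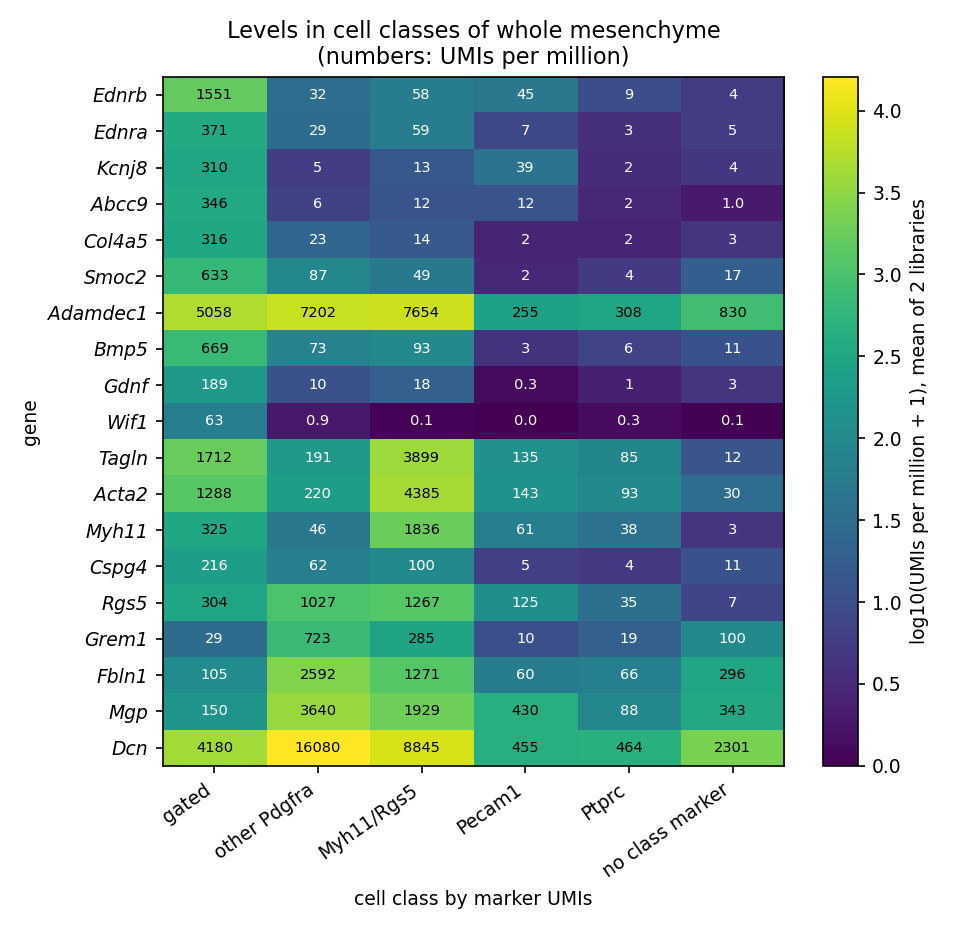
Colour gives log10(UMIs per 1000000 + 1) and each number the UMIs per 1000000, as the mean of WM1 and WM2, for 19 genes in gated cells (left column), other Pdgfra cells and 4 further classes of kept cells, each class named by the marker UMIs that set it. Ednrb to Smoc2, Bmp5, Gdnf and Wif1 peak in the left column, Tagln, Acta2 and Myh11 in the Myh11/Rgs5 column, and Grem1, Fbln1, Mgp and Dcn in the other Pdgfra column; Myh11 and Rgs5 set their own class and Pdgfra is not shown.

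Among BMP ligands outside the gate, 5 of 10 tested were higher in gated than in other Pdgfra cells, 2 were lower and 3 did not pass. Their median log2 fold was 1.03 against -0.00 over all genes tested. For this list and those below, the shares over all 10616 genes tested were 5.8% higher and 8.85% lower. Bmp5 was the most different, at 728 and 611 CPM in gated cells against 77.3 and 68.3 CPM in other Pdgfra cells (log2 fold 3.05). Its bulk levels were 1586 and 1826 CPM in Telocyte and 151 and 103 CPM in PDGFRAlo libraries (log2 fold 3.75, adjusted p = 0.00689, and 0.0549 without PDGFRAlo replicate 2, edgeR). Bmp2 had 379.9 and 438 CPM against 154 and 144 CPM, and its bulk log2 fold of 1.45 did not pass (adjusted p = 0.185, edgeR). Bmp4 was abundant in both, at 815 and 845 against 446 and 445 CPM. Gdf6 was nearly absent from gated cells, at 1.31 and 1.15 against 16.3 and 16 CPM. Gdf10 had 0 UMIs in gated cells of both libraries and 71 in other Pdgfra cells, at least 4.87-fold lower when 3 UMIs are put in the gated sum of both libraries.

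BMP antagonists went both ways, with 4 of 11 tested higher, 3 lower and 4 not passing (median log2 fold -0.79). Fst, the activin and BMP antagonist follistatin, was the most different at 77.5 and 201 CPM in gated cells against 2.55 and 3.32 CPM in other Pdgfra cells, and it varied between libraries: its log2 fold was 4.38 with only WM1 and 5.47 with only WM2. It came from few cells, 10 in WM1 and 19 in WM2. In bulk Fst had 12.5 and 7.56 CPM in Telocyte and 3.1 and 7.21 CPM in PDGFRAlo libraries and did not pass (adjusted p = 0.505, edgeR). Nbl1 and Twsg1, a modulator of BMP binding, were higher in gated cells, Twsg1 at 447 and 464 against 193 and 194 CPM. Grem1, the antagonist named above, had 6.57 and 51.7 CPM in gated cells against 778 and 667 CPM, and 21 of its 45 UMIs in the gated cells of WM2 were in a single cell. Its log2 fold was -6.86 with only WM1 and -3.80 with only WM2.

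Of 7 Wnt ligands and R-spondins tested, 2 were higher and 5 lower in gated cells (median log2 fold -2.37). Wnt4 had 242 and 286 CPM against 52.7 and 72.8 CPM in other Pdgfra cells and Wnt5b 38.1 and 29.9 against 5.34 and 4.98 CPM. Rspo3, an R-spondin that amplifies Wnt signalling in crypts, had 36.8 and 23 CPM in gated cells against 126 and 124 CPM, and Wnt2b 7.89 and 4.6 against 24.9 and 32.4 CPM. Bulk levels moved the same way for all 4, but only the difference of Wnt2b kept an adjusted p under 0.05 with any library left out (adjusted p = 0.00123, edgeR).

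Wif1 was the only one of 5 tested Wnt inhibitors that was higher in gated cells, 3 were lower and 1 did not pass. It had 81.5 and 44.8 CPM in gated cells against 1.86 and 0 CPM in other Pdgfra cells, and 154 and 113 CPM in Telocyte against 1.32 and 0.878 CPM in PDGFRAlo bulk libraries (log2 fold 6.93, adjusted p = 0.00024, edgeR). Sfrp1, a secreted frizzled-related protein that binds Wnts, had 221 and 373 CPM in gated cells against 3178 and 3094 CPM, and Dkk2 had 18.4 and 29.9 against 265 and 248 CPM. Frzb, another frizzled-related protein, had 0 UMIs in gated cells, at least 15.5-fold lower.

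Growth factors went both ways, 7 of 19 tested higher, 5 lower and 7 not passing. Gdnf, which supports enteric neurons and glia, had 201 and 177 CPM in gated cells against 8.59 and 11.3 CPM in other Pdgfra cells and a bulk log2 fold of 4.84 (adjusted p = 0.000981, edgeR). Nrg1, a ligand of ERBB receptors, had 162 and 191 against 18.8 and 29.9 CPM, and in bulk 42.8 and 39.6 CPM in Telocyte against 22.2 and 2.17 CPM in PDGFRAlo libraries, which did not pass (adjusted p = 0.204, edgeR). Fgf10 had 0 UMIs in gated cells and 133 in other Pdgfra cells, at least 9.13-fold lower, and it was listed at 0 in both Telocyte bulk libraries. Hgf had 31.5 and 26.4 against 63.2 and 76.4 CPM. Ereg, an EGF receptor ligand, and Igf1 were the most abundant of the list in gated cells, Ereg at 319 and 433 CPM and Igf1 at 339 and 277 CPM, and did not pass.

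Hedgehog genes were lower or did not pass, 4 of 9 tested lower, 5 not passing and 0 higher (median log2 fold -0.91). The shares over all genes tested were 8.85% lower and 5.8% higher. Ptch1, the receptor and target, had 273 and 314 CPM in gated cells against 177 and 184 CPM in other Pdgfra cells and did not pass. The coreceptor Gas1 was at 9.2 and 13.8 against 114 and 107 CPM with a bulk log2 fold of -5.19 (adjusted p = 0.000378, edgeR). Hhip, a secreted Hedgehog antagonist, had 77.5 and 95.4 CPM in gated cells against 57.6 and 78 CPM, but a single cell held 57 of its 59 UMIs in WM1 and another 43 of its 83 UMIs in WM2. With every cell thinned to 2000 UMIs its log2 fold was -1.11, against 0.20 unthinned, and in bulk it was lower in Telocyte libraries, at 5.34 and 0.303 against 83.2 and 41.1 CPM (adjusted p = 0.0292, and 0.114 without PDGFRAlo replicate 1, edgeR).

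Of 21 tested transcription factors, 5 were higher, 8 lower and 8 did not pass. Tcf4, an E protein, was the most abundant at 1678 and 1609.6 CPM in gated cells against 428 and 385 CPM in other Pdgfra cells. The zinc-finger pair split, with Zeb1 at 227 and 231 against 60.6 and 56.4 CPM and Zeb2 at 103 and 152 against 877 and 860.5 CPM. In bulk Zeb2 was lower in Telocyte libraries (log2 fold -3.86, adjusted p = 0.00124, edgeR). Klf4 had 90.7 and 106 against 546 and 504 CPM, and Nkx2-3, a homeobox gene of gut mesenchyme that did not pass, 478 and 461 against 304 and 334 CPM. Foxl1, the factor by which telocytes are known, had 26.3 and 41.4 CPM in gated cells against 1.86 and 2.77 CPM, and the T-box gene Tbx4 43.4 and 37.9 against 0.697 and 0.83 CPM. Foxl1 did not enter the gate, and it had a UMI in 16 of 95 gated cells in WM1 and 28 of 102 in WM2.

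Matrix genes also went both ways. Of 22 tested basement membrane genes, 5 were higher, 6 lower and 11 did not pass (median log2 fold -0.02), and of 29 interstitial matrix genes 6 were higher, 12 lower and 11 did not pass (median log2 fold -0.64). Lama4, a laminin chain, had 644 and 713 CPM in gated cells against 178 and 174 CPM in other Pdgfra cells, while Lamb1, another laminin chain, had 1013 and 1039 against 499 and 506 CPM and did not pass. Col15a1 was low in gated cells, at 63.1 and 64.4 against 482 and 493 CPM (bulk log2 fold -4.44, adjusted p = 0.00166, edgeR). Col12a1, a fibril-associated collagen, had 722 and 765 against 84.5 and 86.9 CPM and a bulk adjusted p of 0.0448 (edgeR), which was over 0.05 with any library left out. The most abundant members were lower, with Col3a1, a fibrillar collagen, at 2366 and 2832 against 7789 and 7694 CPM and the proteoglycan Dcn at 4067 and 4293 against 16255 and 15904 CPM.

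Apart from the marker lists of cell types, contractile genes had the highest share on the higher side, 10 of 15 tested. Of this list 0 were lower and 5 did not pass (median log2 fold 1.33), and 5.8% of all genes tested were higher. Tagln, an actin-binding protein of smooth muscle, had 1836 and 1588 CPM in gated cells against 180.0 and 201 CPM in other Pdgfra cells, Acta2, smooth muscle actin, 1413 and 1162 against 199 and 240.2 CPM, and Myl9, a myosin light chain, 606 and 625 against 108 and 91.6 CPM. In bulk, Tagln was higher in Telocyte libraries by a log2 fold of 2.60 (adjusted p = 0.00339, edgeR), and Acta2 by 2.09 (adjusted p = 0.0148, and 0.114 without PDGFRAlo replicate 2). The bulk list was divided, with 5 of 15 higher, 5 lower and 5 not passing. Actg2 and Cnn1, markers of mature visceral muscle, were lower in Telocyte libraries, Actg2 at 2.71 and 0.242 against 43.7 and 28.9 CPM and Cnn1 at 2.42 and 0.242 against 30.6 and 16.9 CPM, while their gated sums were higher, Actg2 at 10.5 and 52.9 against 9.52 and 14.1 CPM and Cnn1 at 9.2 and 28.7 against 5.11 and 9.68 CPM. Both count among the 10 genes above, but 1 gated cell in each library held most of their UMIs. In WM1 that cell held all 8 UMIs of Actg2 and all 7 of Cnn1, and in WM2 it held 25 of 46 and 21 of 25. Without it Cnn1 was at 0 and 4.67 CPM, lower than in other Pdgfra cells. Actg2 was then at 0 CPM in WM1 but at 24.5 CPM in WM2, still above the 14.1 CPM of other Pdgfra cells there. In cells with Myh11 or Rgs5 UMIs, Actg2 reached 759.6 CPM, and in empty barcodes it was at 83.7 CPM, above its level in gated cells. The summed smooth muscle markers were 417 and 520 CPM in gated cells against 213 and 237 CPM in other Pdgfra cells, and their part in the contractile difference was not tested.

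Signal receptors gave 6 higher, 6 lower and 15 not passing of 27 tested. Beside the endothelin receptors, Tgfbr3, the TGF-beta coreceptor betaglycan, was lower at 134 and 131 CPM in gated cells against 340.5 and 345 CPM in other Pdgfra cells, and Fgfr2 at 43.4 and 25.3 against 169 and 159 CPM. Of 15 ion channel and gap junction genes, 8 were higher, 3 lower and 4 did not pass. Gja1, connexin 43, had 456 and 497 against 103 and 105 CPM. Piezo2, a mechanosensitive channel, had 6.57 and 10.3 against 65.3 and 56.4 CPM, with a bulk log2 fold of -5.76 (adjusted p = 0.000781, edgeR). Scn7a, a sodium channel gene, had 94.6 and 13.8 CPM in gated cells against 315 and 286 CPM, and 48 of its 72 UMIs in WM1 were in a single cell. Without cells that carried 2 or more UMIs of other types' markers its log2 fold was -3.80, against -2.70 with them.

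Axon guidance and synaptic genes were more often lower, 13 of 26 tested, with 6 higher and 7 not passing (median log2 fold -0.95). Sv2b, a synaptic vesicle protein, had 96 and 77 CPM in gated cells against 1.39 and 0.553 CPM in other Pdgfra cells, and 274 and 321 CPM in Telocyte against 2.31 and 1.15 CPM in PDGFRAlo bulk libraries (log2 fold 7.44, adjusted p = 0.000259, edgeR). Nrp1, a receptor for semaphorins and VEGF, was at 32.9 and 32.2 against 329.8 and 333 CPM (bulk log2 fold -5.15, adjusted p = 0.00035, edgeR), and the guidance ligand Slit3 at 38.1 and 48.3 against 285 and 273 CPM. Ncam1 was lower at 179 and 225 against 657 and 651 CPM.

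Chemokines and cytokines were lower for 9 of 17 tested, higher for 1 and not passing for 7 (median log2 fold -1.02). The 1 higher gene was Ccl7, which draws monocytes, with 191 and 107 CPM in gated cells against 12.3 and 3.6 CPM in other Pdgfra cells. Only 29 gated cells in WM1 and 13 in WM2 had a UMI of Ccl7. In bulk the log2 fold of Ccl7 was 1.88 and did not pass (adjusted p = 0.129, edgeR). Its neighbour in function, Ccl2, was lower at 34.2 and 18.4 against 171 and 184 CPM. Cxcl12 and Ccl11 were the most abundant, Cxcl12 at 1314 and 1284 CPM and Ccl11 at 682 and 801 CPM in gated cells, and did not pass. Of 21 immediate early and heat shock genes, which rise in cells under the stress of isolation, 5 were lower, 0 higher and 16 did not pass. Atf3, a stress-induced transcription factor, had 146 and 137 CPM in gated cells against 661 and 658 CPM, and Fos, at 3407 and 3510.1 against 4807 and 5013 CPM, did not pass.

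The genes past the threshold were next read in the bulk libraries, whose p-values measure the spread between libraries not stated to be from separate animals. Telocyte libraries had 412 of 14893 genes higher (2.77%) and 1800 lower (12.1%) than PDGFRAlo libraries, at an adjusted p under 0.05 (edgeR). Of the 616 genes higher in gated cells, 591 were tested in bulk, and 285 of them were higher in Telocyte libraries, which is 48.2%, against 3.49% of the 10358 genes tested in both. The 285 genes are 78.9% of the 361 bulk calls in that direction. Of the 940 genes lower in gated cells, 912 were tested and 559 (61.3%) were lower in Telocyte libraries, against 7.36% of all genes tested in both, and 0 were higher. Of the lists, Cd81 and adventitial stroma had 8 of 10 genes lower and 0 higher in Telocyte libraries, axon guidance and synaptic genes 16 of 32 lower and 4 higher, chemokines and cytokines 8 of 23 lower and 0 higher, and transcription factors 7 of 26 lower and 8 higher. In bulk samples, fewer cells of a type and less RNA per cell cannot be told apart. The marker levels move with this comparison: all 9 blood endothelial markers and all 9 macrophage and dendritic markers were lower in Telocyte than in PDGFRAlo libraries, Pecam1 at 8.19 and 3.39 against 299 and 93.3 CPM, and their part in the bulk differences was not tested.

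Of the 591 genes, 18 were higher in gated cells and lower in bulk Telocyte libraries. They included the immunoglobulin joining chain Jchain (2771 and 2979 CPM in gated cells against 1277 and 966 CPM in other Pdgfra cells, and 209 and 125 CPM in Telocyte against 1749 and 1816 CPM in PDGFRAlo libraries), the B cell genes Cd79a and Cd79b, the macrophage gene Lyz2, the endothelial genes Flt1 and Clec14a, the T cell gene Ctla4, and the muscle genes Actg2 and Cnn1. The immunoglobulin-rich cell of each library held 90.6% (WM1) and 91.0% (WM2) of the gated Jchain UMIs, and without it Jchain was at 273 and 280 CPM, lower than in other Pdgfra cells. The same cell held 12 of 13 and 9 of 17 Cd79a UMIs. A single cell held more than 50% of the gated UMIs in both libraries for 8 of the 18 genes. All 18 but Jchain had a mean of at most 31.8 CPM in gated cells.

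**Figure D4:**
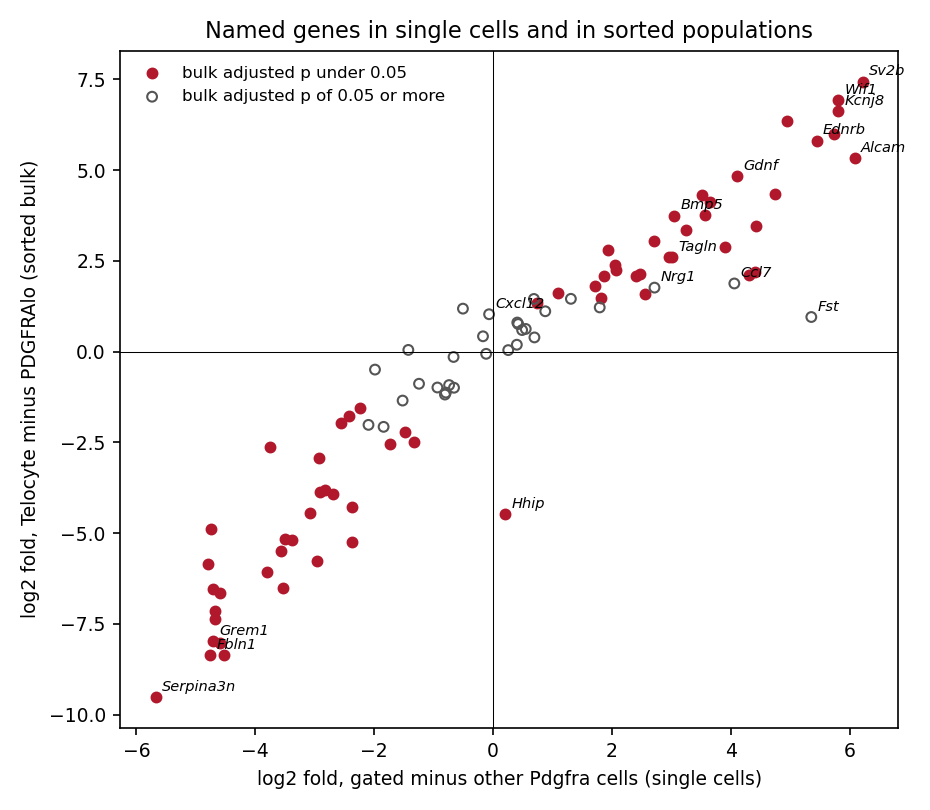
Each point is 1 of 94 named genes with a UMI in the gated cells, placed by its log2 fold of gated minus other Pdgfra cells (horizontal) and of Telocyte minus PDGFRAlo bulk libraries (vertical); filled red points have a bulk adjusted p under 0.05. The sign is the same for 89 of the 94 genes and for 63 of the 64 filled ones, and Hhip is the filled point whose signs differ. The genes were in part picked for their single-cell folds, so these counts do not speak for all genes. Of the 10358 genes tested in both, 57.4% had a bulk log2 fold above 0 and 42.6% one below 0.

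Leaving out any 1 of the 4 bulk libraries kept an adjusted p under 0.05 for 41 of the 67 named genes that passed with all. The other 26, among them Smoc2, Nbl1, Bmp4, Col12a1, Wnt5b and Twsg1, missed it without at least 1 library. The number of genes higher in Telocyte libraries was 158 without Telocyte replicate 2, 173 without PDGFRAlo replicate 2, 214 without Telocyte replicate 1 and 291 without PDGFRAlo replicate 1. The number lower was 889, 1384, 1148 and 1533 in the same order.

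In the single-cell library of GFP-sorted cells the same gate took 665 of 3890 kept cells and left 768 other Pdgfra cells. There the levels of Ednrb and Kcnj8 lay closer together, Ednrb at 1036 CPM in gated cells and 497 CPM in other Pdgfra cells and Kcnj8 at 735 and 292 CPM. Fbln1 was at 139.9 and 2090.1 CPM. The direction was that of whole mesenchyme for these 3 genes. Of the 768 other Pdgfra cells, 120 had a gate sum of 2 and 152 a sum of 3. In WM1 those sums had 20 and 12 of 527 cells, and in WM2 16 and 5 of 451. The part of these cells in the levels was not tested. For 3 others the levels in sorted gated cells were low: Fst was at 2.15 and 0.531 CPM, Npnt at 14.3 and 9.03 CPM, and Nrg1 at 15.3 and 16.2 CPM, whereas gated cells of whole mesenchyme had 77.5 and 201 CPM of Fst, 180.1 and 366 CPM of Npnt, the matrix protein nephronectin, and 162 and 191 CPM of Nrg1. With 1 sorted library, processed with an earlier Cell Ranger version, this difference was not tested. The unfiltered matrices list 6794880 barcodes for each whole-mesenchyme library and 737280 for the sorted library, although the labels name 1 assay version for all, so a difference in chemistry cannot be told apart from one in cells.

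Gated cells were not alike among themselves. Cells were thinned to 2000 UMIs each (94 cells in WM1 and 102 in WM2) and the Fano factor, the variance over the mean, was taken for 836 genes with a mean of 0.3 or more, for which its median was 1.12. The highest values were 31.5 for the nuclear RNA Malat1, 8.55 for Adamdec1, 8.21 for the metallothionein Mt1, 7.73 for Dcn, 7.72 for Fos, 7.45 for Egr1, 7.10 for Junb and 6.97 for Igfbp5. Their means differed widely, from 126 and 105 UMIs for Malat1 to 0.521 and 0.333 for Igfbp5. The Fano factor was not adjusted for the mean, so this order does not rank genes at equal level. Mt1 went with stress genes across gated cells, its strongest correlation being with Zfp36, a regulator of mRNA decay (Pearson r = 0.39 in WM1 and 0.33 in WM2). For Malat1 no correlation was over 0.30 in both libraries. These r are descriptions over cells of 1 library each, which share depth and preparation.

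Adamdec1 and Smoc2 varied in opposite directions among the gated cells, with many cells that held both. Their r was -0.58 over the 94 cells of WM1 and -0.52 over the 102 of WM2. Adamdec1 went instead with Col3a1 (0.40 and 0.55), the metalloprotease Pappa (0.40 and 0.44), Cav1 (0.45 and 0.32) and Ncam1 (0.39 and 0.32), and against the eosinophil attractant Ccl11 (-0.35 and -0.39) and Itih5 (-0.30 and -0.35). A Smoc2 UMI was present in 52 of 94 cells in WM1 and 53 of 102 in WM2. Of the cells without it, 36 in WM1 and 43 in WM2 had 5 or more Adamdec1 UMIs, and 6 in each library had fewer. Of the cells with it, 23 of 52 in WM1 and 29 of 53 in WM2 also had 5 or more Adamdec1 UMIs.

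**Figure D5:**
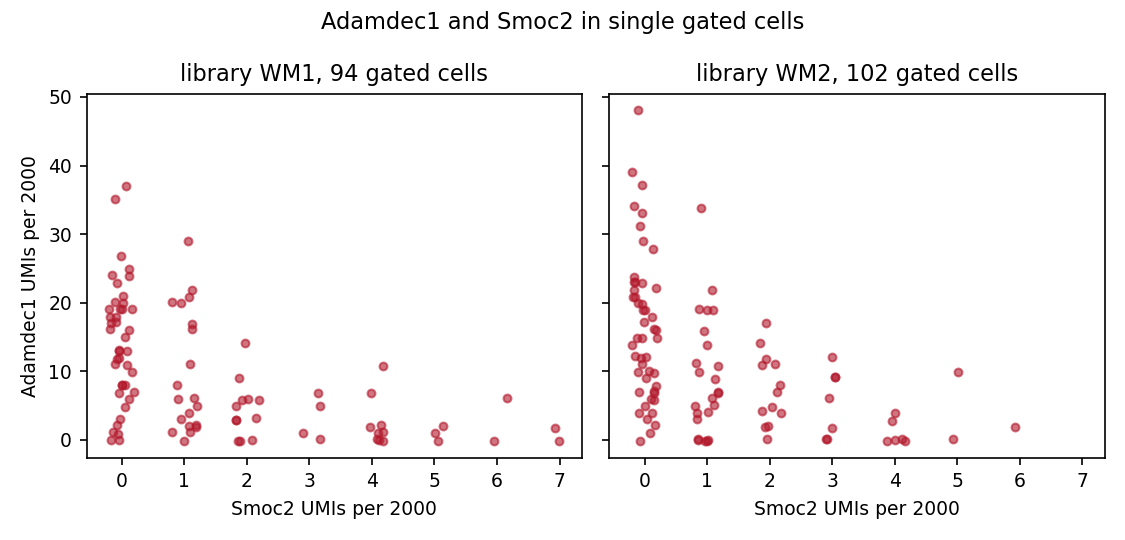
Each point is a gated cell of WM1 (left) or WM2 (right), placed by its Smoc2 and Adamdec1 UMIs after thinning to 2000 UMIs, with a small random offset so that equal cells can be seen. The highest Adamdec1 counts sit at low Smoc2 counts, and the 16 (WM1) and 9 (WM2) cells with 4 or more Smoc2 UMIs have a median of 1 and 0 and at most 11 and 10 Adamdec1 UMIs.

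The gated cells were set apart by whether they held a Smoc2 UMI, a split drawn after the values were seen and given without a test. Values are mean UMIs per cell of 2000 in WM1 and WM2. Cells with a Smoc2 UMI had 5.75 and 7.15 of Adamdec1, and cells without had 14.3 and 16.5. Npnt was at 0 and 0.0377 in cells with Smoc2, against 0.881 and 1.78 in cells without. Nrg1 was at 0.0769 and 0.0377 against 0.762 and 0.633, Ncam1 at 0.0962 and 0.208 against 0.69 and 0.755, and Sfrp1 at 0.154 and 0.189 against 0.452 and 1.2. The shared direction of these 5 genes is no result, as they were picked after their values were seen. Adamdec1 and Ncam1 had also been named from correlations in the same cells. No share over all genes is given beside them. Fst had a UMI in 0 of 52 and 0 of 53 cells with Smoc2, which allows a share of cells with a UMI of up to 5.77% and 5.66%, and in 16.7% and 28.6% of the cells without.

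Ednrb was present with and without Smoc2 but higher without, at 1.77 and 2.32 UMIs with and 4.31 and 4.78 without it. Bmp2 was at 0.423 and 0.66 with and 1 and 1.31 without Smoc2. The libraries differed in direction for Bmp5, at 1.15 and 1.3 with and 2 and 1.18 without Smoc2. By contrast, cells with Smoc2 had more Ccl11 (1.75 and 2.23 against 0.976 and 0.653), more Trp53i11 (0.75 and 0.755 against 0.286 and 0.143), more Igf1 (0.885 and 0.66 against 0.357 and 0.245) and more Gadd45a (1.17 and 1.43 against 0.643 and 0.653). Each of these differences but that of Bmp5 had the same direction in WM1 and WM2. The genes were picked after their values were seen, so this is no result about genes at large. Npnt, Nrg1 and Fst, named above as low in the GFP-sorted library, were all higher in the cells without Smoc2. These 3 genes were picked after their values were seen, and Ednrb, also higher without Smoc2, was not low in that library. A relation between the 2 patterns was not tested.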

How the data were processed

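Single-cell values were UMI counts per gene and barcode in matrices deposited by the authors, made with Cell Ranger 3.0.2 for whole mesenchyme and 2.1.1 for the sorted library, on mm10 after STAR alignment, per the submitters' processing notes. The bulk table holds read counts per gene, as deposited by the authors. For that table no counting program, annotation or strand setting is named in the labels, so overlapping and near-identical genes are uncertain. Of its 24969 rows, 26 had names turned into dates and were left out. The whole-mesenchyme labels repeat the text on GFP sorting of the sorted library.

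UMIs were summed per library and class, gate genes were removed, and sums were fitted with edgeR 4.0.16 (TMM, filterByExpr, quasi-likelihood test, library as a block, R 4.3.3) with Benjamini-Hochberg adjustment. A single-cell gene was counted as higher or lower at an adjusted p under 0.05 and a log2 fold beyond 1. Bulk counts were fitted over all 8 libraries, with totals of 11454466 to 21339417 in the 4 compared, and counted at an adjusted p under 0.05. Doublets were predicted with scrublet (scanpy 1.11.5) and kept. Each fit was tested on simulated data. DESeq2 1.42.0, other scalings, filters, gates and left-out libraries were alternatives.

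Named genes were the 10 largest rises and falls and the most abundant genes past the threshold with 200 CPM or more. They also included the genes of smallest p and highest level in each list and the 8 of highest Fano factor with their strongest correlations. The cells, lists and markers were chosen with earlier results of these data known. Genes of the marker lists, the genes with opposite bulk calls, the split by Smoc2 and its genes, and Foxl1, Tbx4, Npnt, Nrg1, Fst, Frzb, Gdf10, Fgf10 and Hhip were in part named after their values were seen. Some genes picked by these rules and 1 class of cells are not reported here. Replicate numbers did not pair the bulk libraries by the labels.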

Additional observations from a re-analysis of the deposited data

Results flagged for a closer look

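Of the genes above, 17 were higher in the gated sums of both whole-mesenchyme libraries than in other Pdgfra cells and lower in both Telocyte than in both PDGFRAlo bulk libraries. The difference between the 2 kinds of data was not tested. Bulk log2 folds of the immune genes were -3.36 for Ctla4, -3.86 for Laptm5, -3.41 for Jchain, -3.95 for Cd79a, -4.17 for Cd79b, -3.38 for Cd83 and -2.28 for Lyz2. Muscle genes had -4.64 (Actg2) and -4.17 (Cnn1), the endothelial gene Clec14a had -3.84 and the Paneth cell defensin gene Defa24 had -4.33. The remaining genes had -1.43 (Itga6), -1.78 (Lrrc8c), -3.35 (Kcnn4), -1.50 (Pxdc1), -1.15 (Rsad2) and -2.92 (Pla2g7). For several of these, 1 gated cell in each library held most of the UMIs. In WM1 and WM2 the immunoglobulin-rich cell held 90.6% and 91.0% of the Jchain UMIs. It also held 12 of 13 and 9 of 17 of Cd79a and 7 of 7 and 5 of 8 of Kcnn4. A different cell held 8 of 8 and 25 of 46 of Actg2, and 7 of 7 and 21 of 25 of Cnn1. Without the richest cell, Cd79a, Kcnn4, Actg2, Ctla4, Laptm5 and Cd79b stayed above other Pdgfra cells in WM2 but not in WM1. In WM2 Cd79a was then at 9.62 against 6.09 CPM, Kcnn4 at 3.61 against 1.38 CPM and Actg2 at 24.5 against 14.1 CPM. Ctla4 was at 4.81 against 2.49 CPM, Laptm5 at 15.0 against 7.75 CPM and Cd79b at 2.41 against 1.94 CPM. Without the gated cell richest in the gene, a comparison added after seeing the data, Jchain and Cnn1 were lower than in other Pdgfra cells in both libraries, and 8 more of the 18 genes higher in gated and lower in Telocyte libraries were at or below other Pdgfra cells in 1 library.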

How the results depend on the processing

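Of the named genes, 932 single-cell values against other Pdgfra cells kept their direction and side of the threshold over the alternatives, 5 lost the threshold, 1 gained it, 26 moved and 1 reversed: Hhip, at -1.11 with cells thinned to 2000 UMIs. Against other Pdgfra cells, DESeq2 gave 381 genes higher and 492 lower, and thinning gave 375 higher and 527 lower. Against all other cells, DESeq2 gave 1664 lower, thinning 924 higher and 1591 lower, and library totals alone 3590 higher. Thinning leaves fewer UMIs by construction; for the other settings the cause was not tested. A gate sum of 8 or more left 0.948% of cells in WM1 and 1.18% in WM2. In bulk, the 4 libraries alone gave 640 genes higher and DESeq2 646. Leaving out each bulk library gave 158 to 291 higher and 889 to 1533 lower. With the replicate number as a block, bulk gave 407 higher and 1724 lower. The differences between replicates of the 2 groups correlated at r = 0.098 over 14893 genes. That value cannot show whether libraries of the same number came from the same animals, which the labels do not say. With no replicate block, gated cells had 1640 genes higher and 2736 lower than all other cells, and 633 higher and 957 lower than other Pdgfra cells. Single-cell alternatives without a library give folds only, having no residual degrees of freedom. The limits are 197 cells, 2 whole-mesenchyme libraries and a gate that drew the classes compared.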
